A study of Mus musculus with 26 samples.

Results

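Chemokines are small secreted proteins that direct the movement of leukocytes, and the genes described here are the mouse chemokine ligands together with their receptors. They were chosen by name from the deposited gene counts as protein-coding genes of the Ccl, Cxcl, Cx3cl and Xcl ligand families and of the Ccr, Cxcr, Cx3cr, Xcr and Ackr receptor families, with Pf4 and Ppbp added. The rule found 61 of the 50686 genes in the counts, 39 ligands and 22 receptors, and it used no measured value. A chemokine binds a G protein-coupled receptor on a leukocyte, which then moves up the gradient of the ligand. The atypical receptors (Ackr) bind chemokines without the usual G protein signal and take them up, which lowers the amount of ligand outside the cell. Some ligands are produced at rest and keep lymphocytes and progenitors in place, whereas others are induced by injury or infection and recruit neutrophils or monocytes. In adipose tissue, ligands of this family are known for drawing monocytes into the expanding tissue of obese animals.

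Brown adipose tissue (BAT, given in the labels as supraclavicular) was taken from male C57BL/6J mice aged 12 to 16 weeks, and total RNA was sequenced after removal of ribosomal RNA. The WT mice are control littermates, and the mice labelled Afadin KO carry Adiponectin-Cre with Mllt4 flox/flox, so that the deletion is aimed at adipocytes of all fat depots and other cells of the tissue keep the gene. The mice were housed singly for 14 to 18 days at thermoneutrality, which the labels give as 30 °C and the study's methods as 29 °C, and some of them then spent 6 h at 5 °C. The groups were 7 control mice (numbers 1 to 7) and 7 mice labelled KO (8 to 14) at 30 °C, and 5 control mice (16 to 19 and 21) and 7 mice labelled KO (22 to 28) after cold.

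The libraries held 12705969 to 25732258 counts, and the members together took 0.021% to 0.0319% of them at 30 °C and 0.0423% to 0.0738% after cold. One count corresponded to 0.0429 to 0.0773 CPM (counts scaled to the same library total), so levels under about 0.2 CPM rest on a few reads. Afdn, the gene that encodes Afadin (formerly Mllt4), was not lower in the libraries labelled KO at 30 °C. Its median there was 204 CPM against 200 CPM in the controls. After cold its median was 57.9 CPM against 73.7 CPM, which did not pass edgeR's quasi-likelihood test (log2 fold change -0.33, adjusted p = 0.116). By immunoblot, the study reported a smaller rise of Afadin protein with cold in the knockout mice. Because of the RNA counts, the group is called by its label below. Control mouse 7 at 30 °C stood apart in fibroblast markers (a summed 3705 CPM, against at most 2111 CPM in the other control mice at 30 °C), mouse 23 in B cell markers and mouse 27 in neutrophil markers, both labelled KO and both after cold. Values without mouse 27 or without these 3 mice are given where a call for cold changed. The tissue carried Ucp1, the uncoupling protein that defines brown fat, at 551 to 1292 CPM at 30 °C and 13010 to 20990 CPM after cold.

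After 6 h of cold, ligands that attract neutrophils and ligands of Ccr1 rose in both kinds of mice, and so did the atypical receptor Ackr3. The fractalkine receptor Cx3cr1, the skin-homing receptor Ccr10, the monocyte receptor Ccr2, and Cxcr4, Cxcr6 and Ccr9 fell. Of the 61 members, 43 had enough counts to be tested. In the control mice, 17 of the 43 rose and 10 fell, 62.8% of those tested, where 65% of all 17286 genes tested were past the threshold (an adjusted p under 0.05 in edgeR's quasi-likelihood test). The share of members that rose was 39.5% against 31.6% of all genes, and the share that fell was 23.3% against 33.4%. In the mice labelled KO, 20 rose and 11 fell, 72.1% of those tested against 68.6% of all genes, with 46.5% against 33.7% rising and 25.6% against 34.9% falling. The total share of members past the threshold was thus close to that of genes in general in both comparisons. The ligands had 13 rises and 3 falls among 27 tested in the controls, and the receptors 4 rises and 7 falls among 16. The median log2 fold change was 0.13 over the members and -0.01 over all genes in the controls, and 0.45 and -0.03 in the mice labelled KO.

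All 17 members that rose in the controls also rose in the mice labelled KO, and 9 of the 10 that fell in the controls also fell there. No member was past the threshold in opposite directions. Xcr1 was past it in the controls alone, and Ackr1, Ccl28, Ccr7, Cxcr3 and Ppbp in the mice labelled KO alone, but none of these differences between the labels passed its own test. Without the 3 mice that stood apart, Xcr1 also passed in the mice labelled KO, Ackr1, Ccl28 and Ppbp also passed in the controls, and Ccr7 no longer passed. In that fit 18 of 42 tested members rose and 11 fell in the controls, and 18 rose and 14 fell in the mice labelled KO. With library size as the only scaling, the mice labelled KO had 18 rises and 16 falls, and with upper-quartile factors 18 and 15, so that 52.9% and 54.5% of the members past the threshold were higher, against 64.5% with TMM. Ccl25 and Ccr7 then lost their call, while Ccl24, Cx3cl1, Cxcl12 and Xcr1 were past the threshold in the lower direction under both. In these bulk libraries, a lower share of a cell type and less RNA per cell cannot be told apart.

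**Figure D1:**
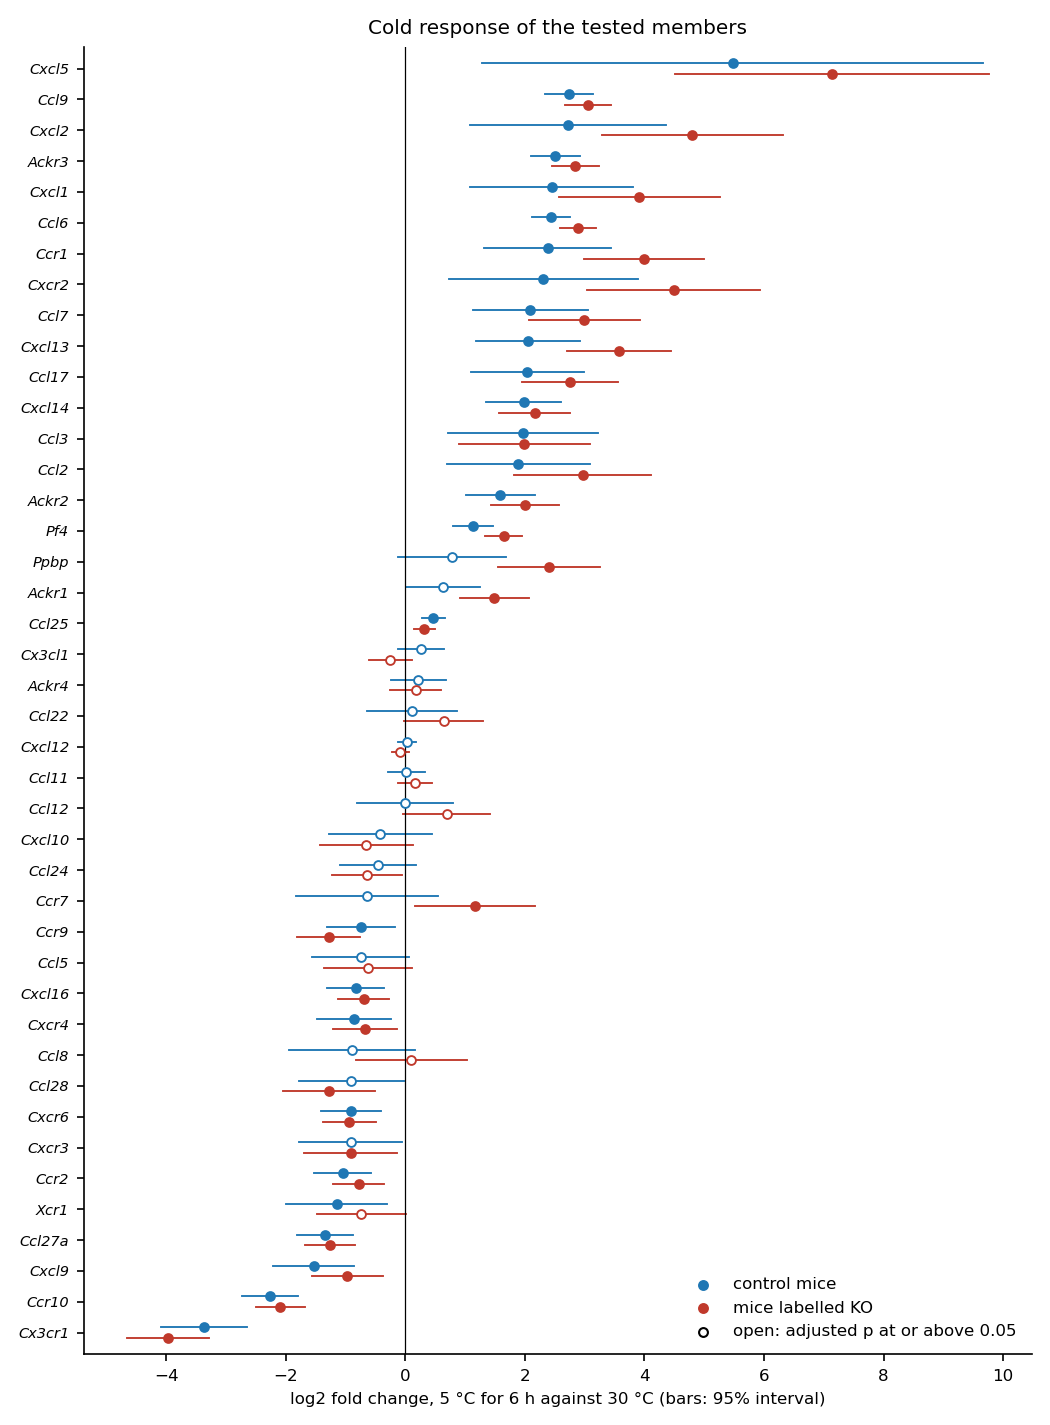
Each row is 1 member (42 of the 43 tested), and the horizontal axis is the log2 fold change of 5 °C for 6 h against 30 °C, with bars for the 95% interval. Blue points are control mice, red points mice labelled KO, and open points have an adjusted p at or above 0.05; Cxcl5 lies at the top (5.48 and 7.13) and Cx3cr1 at the bottom (-3.37 and -3.97).

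Cxcl1, Cxcl2 and Cxcl5, ligands of the receptor Cxcr2 that brings neutrophils into tissue, rose in both kinds of mice. Cxcl1 lay between 0.0459 and 2.16 CPM at 30 °C in the control mice (median 1.19) and at 3.38, 10.3, 4.98, 7.38 and 6.11 CPM in the 5 control mice after cold. The groups did not overlap, and the log2 fold change was 2.45 (SE 0.69, adjusted p = 0.00314). Among those labelled KO, Cxcl1 went from 0.329 to 1.28 CPM (median 0.71) to a range of 2.02 to 51.7 CPM with a median of 3.11. The upper end is mouse 27, and the next mouse had 9.71 CPM. The log2 fold change there was 3.92 (SE 0.69, adjusted p = 1.57e-05), and 2.57 without mouse 27.

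Cxcl2 stood at 0.534, 2.02, 1.63, 1.40 and 1.67 CPM in the control mice after cold, above every control mouse at 30 °C (at most 0.423 CPM). Its log2 fold change was 2.72 (SE 0.83, adjusted p = 0.00577) in the controls and 4.80 (SE 0.77, adjusted p = 4.07e-06) in the mice labelled KO, where mouse 27 had 21.8 CPM and the other mice 0.359 to 4.12 CPM. Without that mouse the latter was 3.36. Cxcl5 was hardly present at 30 °C, with 1 count over the 7 control mice (in mouse 7) and 5 counts over the 7 mice labelled KO. After cold it held 60 counts over the control mice, which stood at 0.119, 0.975, 0.215, 0.208 and 2.02 CPM. The pooled rate was 78 times that at 30 °C, with an exact 95% counting interval of 13.5 to 3133. This interval covers counting error only, not the spread between mice. Those labelled KO held 753 counts of it, but mouse 28 had none, and mouse 27 had 37.4 CPM against at most 2.94 CPM in the others. Its fitted log2 fold change in that group was 7.13 (SE 1.34, adjusted p = 3.79e-05) with mouse 27 and 4.45 without it.

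Cxcl3, a close relative of Cxcl1 and Cxcl2, was too low to be tested. It had 8 counts after cold against 1 count at 30 °C in the controls and 140 against 2 in the mice labelled KO, where mouse 27 had 5.74 CPM and the other 6 mice at most 1.26 CPM. Cxcr2 itself was at most 0.367 CPM in any mouse at 30 °C. It stood at 0.356, 0.906, 0.601, 0.572 and 1.67 CPM in the control mice after cold, with a log2 change of 2.31 (SE 0.81, adjusted p = 0.0139). The groups overlapped by mouse 16 alone, which lay just below the highest control mouse at 30 °C. The mice labelled KO had 0.299 to 9.17 CPM after cold (median 0.953), a log2 change of 4.49 (SE 0.74, adjusted p = 6.03e-06) that was 3.50 without mouse 27. Thus 3 of the 4 tested neutrophil-attracting ligands rose in the controls and all 4, Ppbp included, in the mice labelled KO.

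Most of the neutrophil markers that could be tested also rose after cold. The 12 markers listed (S100a8, S100a9, Ly6g, Mmp8, Csf3r and others) summed to 2.73 to 11.4 CPM at 30 °C, 7.60 to 15.8 CPM in the control mice after cold and 7.29 to 67.4 CPM in the mice labelled KO after cold. Of the 7 that could be tested, 4 rose and 1 fell in the controls, where 31.6% of all genes rose and 33.4% fell. In the mice labelled KO 5 rose and 1 fell, where 33.7% of all genes rose and 34.9% fell. Ly6g, which is specific to neutrophils, had no count in any mouse at 30 °C and in 8 of the 12 mice after cold, with at most 0.169 CPM in the other 4. Mmp8, a neutrophil collagenase, rose by 4.15 on the log2 scale in the controls (SE 0.75, adjusted p = 2.47e-05), from a mean of 0.0821 to 1.62 CPM. Elane, an enzyme of immature neutrophils, fell by 2.91 there (SE 0.55, adjusted p = 4.49e-05), from a mean of 0.559 to 0.0702 CPM. Mouse 27 was the highest in both the markers and the ligands. Mouse 26 had the next highest marker sum (30.3 CPM) with 4.39 CPM over Cxcl1, Cxcl2, Cxcl3 and Cxcl5, which is below the median of its group (6.43 CPM), and control mouse 7 at 30 °C had 11.4 CPM of markers with 0.138 CPM of these ligands. The part of neutrophil number in the levels of the ligands was not tested.

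**Figure D2:**
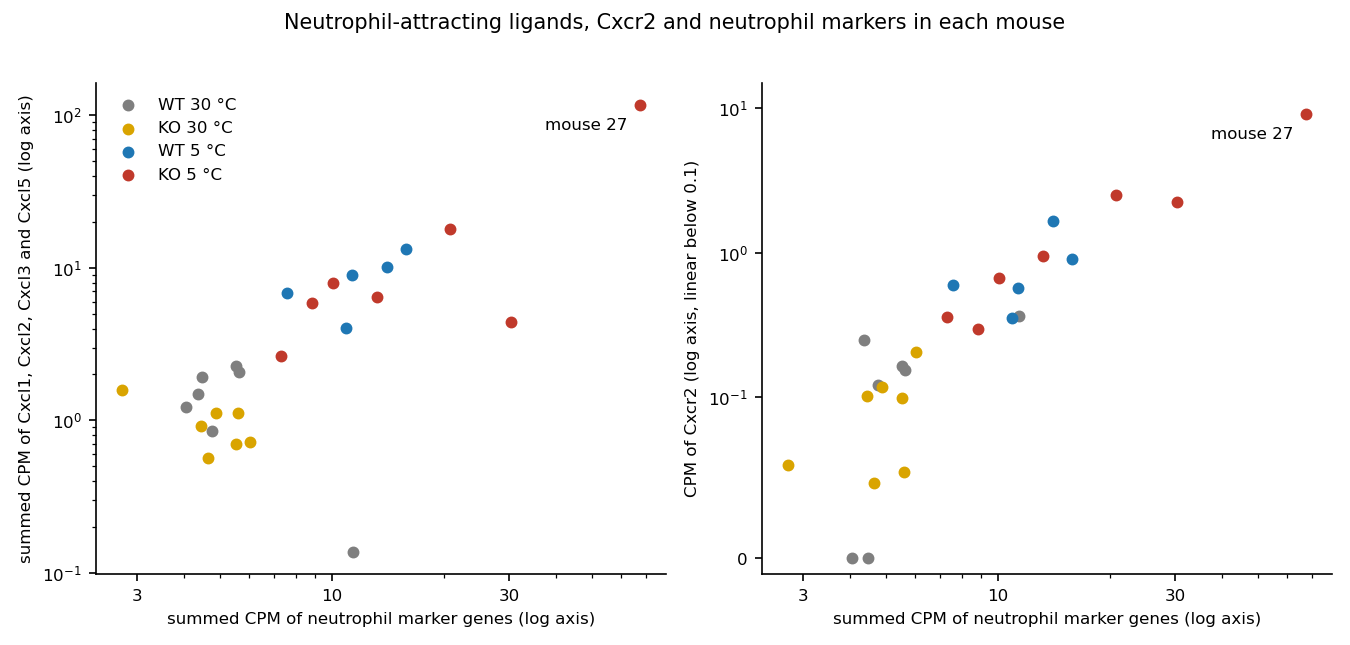
Each point is 1 mouse, with the summed CPM of 12 neutrophil marker genes on the horizontal log axis and, on the vertical log axis, the summed CPM of Cxcl1, Cxcl2, Cxcl3 and Cxcl5 (left) or the CPM of Cxcr2 (right, linear below 0.1). The mice after cold (blue, control; red, labelled KO) lie up and to the right of most mice at 30 °C (grey, control; yellow, labelled KO), and mouse 27 is at the far corner of both panels with 117 CPM of ligands and 9.17 CPM of Cxcr2.

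The sequences before the starts of Cxcl1, Cxcl2 and Cxcl3 are shown because these neighbours rose or gained counts together and because each holds a match to the kappaB motif, the DNA element read by NF-kB. Those of Ccl9 and Ccr1, a ligand and its receptor that rose, are set beside them. Each is the 120 bases before the RefSeq start on GRCm38.p6, 5′ to 3′ on the strand of the gene, with kappaB matches on either strand in capitals (overlapping matches on both strands merge into 1 run). They lie at chr5:90891125-90891244 (plus strand) for Cxcl1, chr5:90903779-90903898 (plus strand) for Cxcl2, chr5:90785981-90786100 (plus strand) for Cxcl3, chr11:83578637-83578756 (minus strand) for Ccl9 and chr9:123968693-123968812 (minus strand) for Ccr1.
Cxcl1: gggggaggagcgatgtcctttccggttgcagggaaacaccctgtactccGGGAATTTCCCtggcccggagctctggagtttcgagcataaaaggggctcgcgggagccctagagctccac
Cxcl2: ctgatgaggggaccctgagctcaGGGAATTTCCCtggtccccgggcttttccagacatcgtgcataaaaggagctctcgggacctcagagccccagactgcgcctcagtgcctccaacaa
Cxcl3: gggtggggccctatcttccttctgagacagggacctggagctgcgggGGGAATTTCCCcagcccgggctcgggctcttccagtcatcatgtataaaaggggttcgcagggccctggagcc
Ccl9: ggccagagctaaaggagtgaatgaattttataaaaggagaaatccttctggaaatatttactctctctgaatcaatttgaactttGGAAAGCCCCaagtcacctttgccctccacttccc
Ccr1: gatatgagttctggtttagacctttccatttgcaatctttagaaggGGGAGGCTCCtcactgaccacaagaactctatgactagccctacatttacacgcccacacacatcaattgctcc

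The first base of the match lies 71 bases before the start of Cxcl1, 97 before that of Cxcl2 and 73 before that of Cxcl3. On the strand of the gene all 3 matches read GGGAATTTCC. Over the 120 bases shown, Cxcl1 and Cxcl3 were identical at 63.9% of aligned columns, Cxcl1 and Cxcl2 at 53.4%, and Cxcl2 and Cxcl3 at 52%. The other pairs among the 7 windows of this length (Ackr3 and Cx3cr1 included) gave 40.7% to 51.5%, so that the values with Cxcl2 lay just above those of other pairs. The matches of Ccl9 and Ccr1 start 35 and 74 bases before the start and read differently. Of the 61 members, 47 had a window from 250 bases before to 50 bases after a start in the RefSeq table, with 54 windows in all. The kappaB motif was found in 12 of these 54 and in 8.46% of all 32851 windows. Among the 17 members that rose in both kinds of mice, 14 had a window and 5 of them a match (Ackr2, Ccl9, Ccr1, Cxcl1 and Cxcl2), while Ackr3, Ccl6, Cxcl13, Cxcr2, Pf4 and others had none. Of the 9 members that fell in both, 7 had a window and Ccl27a a match. The cyclic AMP response element TGACGTCA was in no member window and in 1.79% of all windows.

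Most of the listed genes of the NF-kB pathway rose after cold. Of 20 listed, 15 rose and none fell in the controls, where 31.6% of all genes rose and 33.4% fell. Their median log2 fold change there was 0.49. In the mice labelled KO 11 rose and 1 fell, where 33.7% of all genes rose and 34.9% fell. A part of NF-kB in the rise of the ligands was not tested. Tnfaip3, an inhibitor of the pathway that is also one of its targets, rose by 2.32 (log2) in the controls (SE 0.30, adjusted p = 1.83e-07), and Nfkbia, the inhibitor that holds NF-kB in the cytoplasm, rose by 1.60 (SE 0.09, adjusted p = 2.86e-14). Among inflammatory cytokines, Il6 rose by 3.09 (log2) from a mean of 0.0758 to 0.72 CPM in the controls (SE 1.13, adjusted p = 0.0183), and Il15 fell by 2.16 (SE 0.14, adjusted p = 2.33e-13). In all, 3 of the 10 tested cytokines of the list rose and 3 fell in the controls.

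Ccl6 and Ccl9, neighbouring CC ligands of Ccr1 made mainly by myeloid cells in mice, rose with no overlap between the groups. Ccl6 was at 6.87 to 14.7 CPM in the control mice at 30 °C (median 9.73) and at 61.7, 62.7, 48.4, 60.5 and 41.3 CPM after cold. Its log2 fold change was 2.44 (SE 0.16, adjusted p = 6.57e-13) in the controls and 2.89 (SE 0.16, adjusted p = 8.84e-15) in the mice labelled KO, whose range after cold was 41.4 to 102.5 CPM. Ccl9 was at 5.43 to 14.0 CPM in the control mice at 30 °C and at 54.4, 54.3, 49.5, 53.0 and 41.7 CPM after cold, a log2 change of 2.73 (SE 0.20, adjusted p = 6.88e-12). The log2 fold change of Ccl9 in the mice labelled KO was 3.06 (SE 0.20, adjusted p = 2.5e-13), and for both genes every cold mouse lay above every mouse at 30 °C. Ccl3, another ligand of Ccr1, rose by 1.97 (log2) in the controls (SE 0.64, adjusted p = 0.00844) at levels of 0.475 to 1.15 CPM. Ccl5, which is made mostly by T cells and NK cells, had a median of 1.06 CPM at 30 °C and 0.815 CPM after cold in the controls (adjusted p = 0.113).

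Their receptor Ccr1, carried by neutrophils, monocytes and macrophages, had at most 0.775 CPM in any mouse at 30 °C. It stood at 1.84, 3.07, 1.93, 2.44 and 3.34 CPM in the control mice after cold, a log2 change of 2.38 (SE 0.54, adjusted p = 0.000409). Among those labelled KO it ranged from 1.02 to 22.2 CPM with a median of 4.47, a log2 change of 4.00 (SE 0.51, adjusted p = 1.18e-07) that was 3.20 without mouse 27.

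Of the 4 tested ligands listed for the monocyte receptor Ccr2, Ccl2 and Ccl7 rose while the receptor fell, and Ccl8 and Ccl12 did not pass the test. Ccl2, the main monocyte attractant, went from 0.321 to 2.60 CPM in the control mice at 30 °C to 2.14, 11.3, 2.83, 4.47 and 7.14 CPM after cold, with an overlap by mouse 16 and a log2 change of 1.89 (SE 0.61, adjusted p = 0.00851). Its neighbour Ccl7 rose by 2.09 (SE 0.49, adjusted p = 0.000536) without overlap, with 9.06 CPM in control mouse 17 and 3.56 to 4.88 CPM in the other control mice after cold. The corresponding values in the mice labelled KO were 2.97 for Ccl2 (SE 0.58, adjusted p = 6.92e-05) and 2.99 for Ccl7 (SE 0.47, adjusted p = 3.38e-06), and 2.05 and 2.29 without mouse 27. Ccr2 had 11.9 to 25.0 CPM in the control mice at 30 °C and 8.12, 6.83, 6.78, 8.11 and 8.99 CPM after cold, below all of them. Its log2 fold change was -1.05 (SE 0.24, adjusted p = 0.000514), and -0.78 (SE 0.22, adjusted p = 0.00255) in the mice labelled KO, where the groups overlapped.

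The further ligands of monocytes and eosinophils did not pass the test in either kind of mice, although Ccl24 did in those labelled KO without mouse 27 (log2 fold change -0.73, adjusted p = 0.0428). Ccl11 (eotaxin, the attractant of eosinophils) had medians of 17.4 and 16.4 CPM in the control mice at 30 °C and after cold, and a log2 fold change of 0.02 with a 95% interval of -0.29 to 0.33. Ccl8 was at 7.43 CPM in control mouse 7 and at most 1.53 CPM in the other control mice at 30 °C. Ccl12 and Ccl24 stayed between 0.238 and 2.42 CPM in all groups. Macrophage markers were present throughout, with a sum over 14 genes of 256 to 371 CPM at 30 °C in the controls and 321 to 402 CPM after cold. Of the 14, 7 rose and 4 fell (50% and 28.6%, against 31.6% and 33.4% of all genes). The 8 monocyte markers summed to 192 to 267 CPM and 154 to 256 CPM in the same groups. Of these, 2 rose and 1 fell (25% and 12.5%), both below the shares of all genes.

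**Figure D3:**
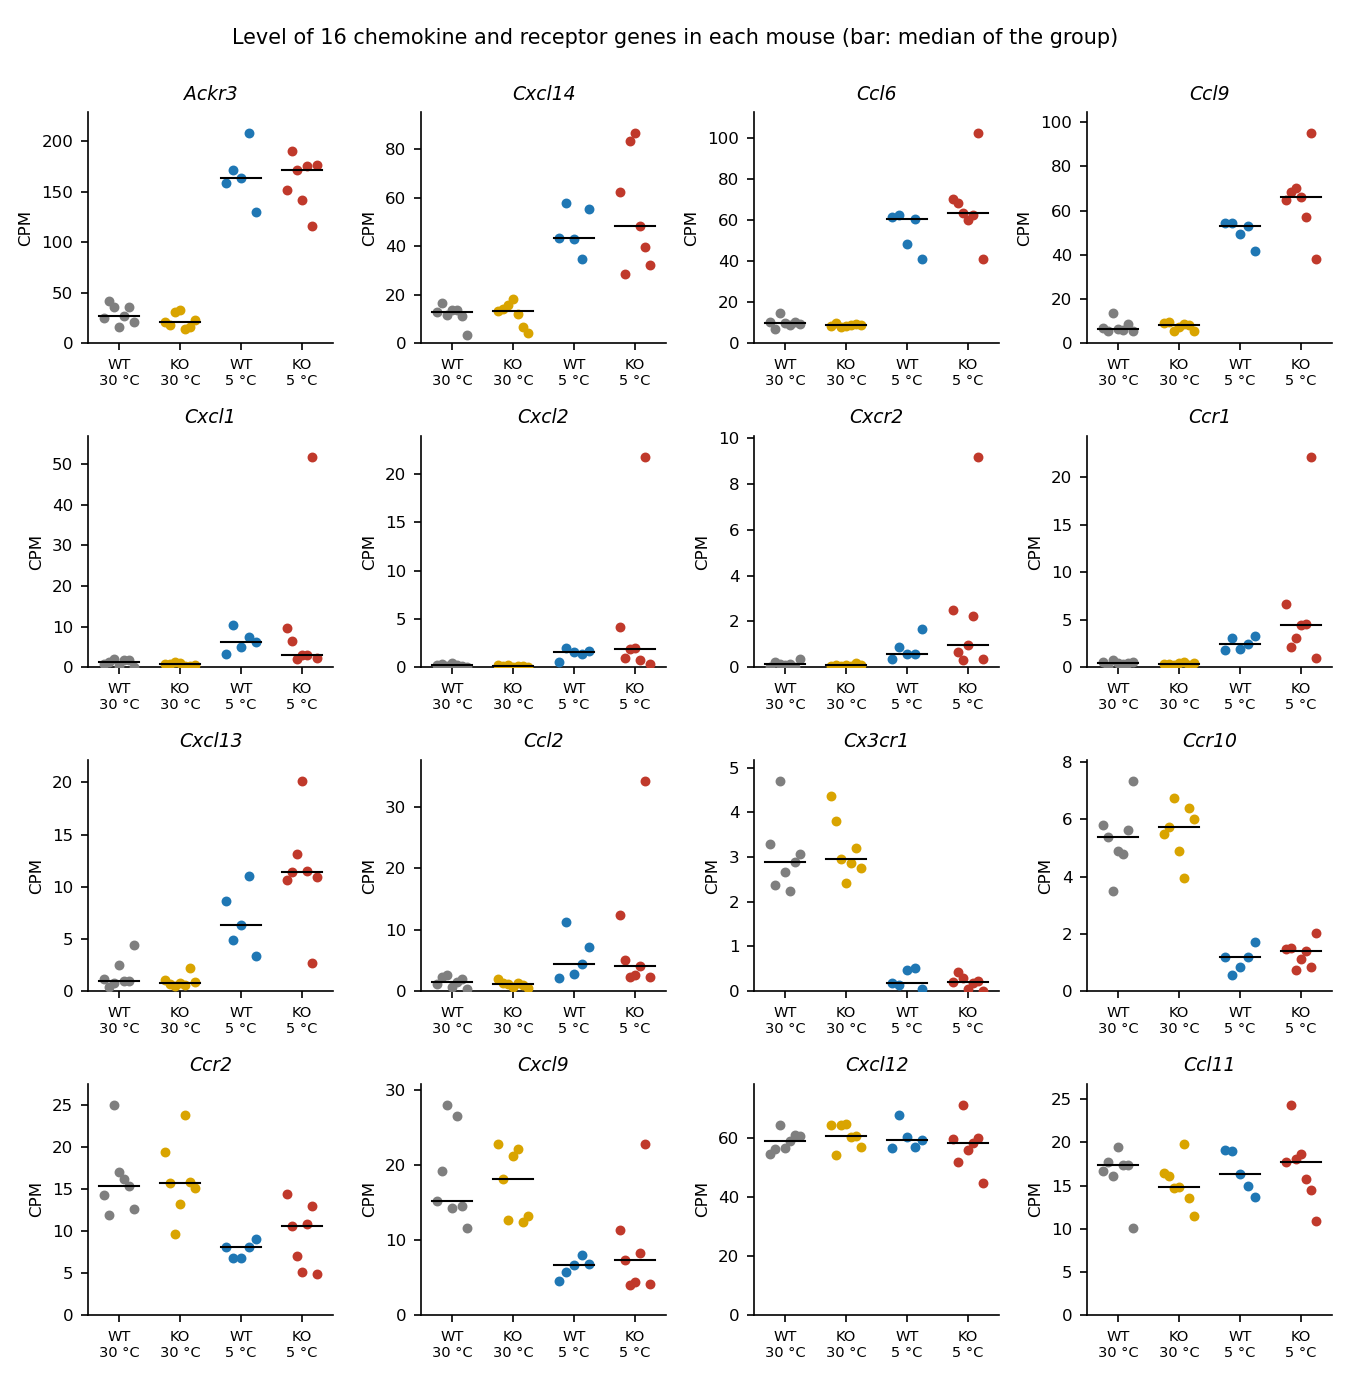
Each panel is 1 gene, each point 1 mouse and each bar the median of a group, with CPM on a linear axis that starts at 0. Ackr3, Ccl6, Ccl9 and Cxcl14 separate the mice at 5 °C from those at 30 °C, Cx3cr1 and Ccr10 do so in the other direction, 1 mouse labelled KO at 5 °C (number 27) is far above the others in Cxcl1, Cxcl2, Cxcr2, Ccr1 and Ccl2, and Cxcl12 and Ccl11 lie at like levels in the 4 groups.

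Among ligands known for roles at rest, Cxcl13, Cxcl14 and Ccl25 rose, Ccl27a and Cxcl16 fell, and Cxcl12 did not pass the test. Cxcl14, an ancient ligand that is made by brown adipocytes among other cells, was at 3.53 to 16.5 CPM in the control mice at 30 °C and at 43.6, 57.7, 43, 34.9 and 55.5 CPM after cold. Its log2 fold change was 1.98 (SE 0.32, adjusted p = 4.99e-06) in the controls and 2.16 (SE 0.30, adjusted p = 4.86e-07) in the mice labelled KO, which spread from 28.5 to 86.6 CPM. Cxcl13, the ligand that draws B cells into follicles, had a median of 1.02 CPM in the control mice at 30 °C, with 4.40 CPM in control mouse 7, and 8.66, 4.88, 6.35, 11.1 and 3.40 CPM after cold. Mouse 7 lay above the lowest control mouse after cold, and the other mice did not overlap. The ligand rose by 2.06 (SE 0.44, adjusted p = 0.00022) in the controls and by 3.58 (SE 0.45, adjusted p = 7.36e-08) in the mice labelled KO. In that group mouse 27 was the lowest in Cxcl13, with 2.70 CPM against 10.7 to 20.1 CPM in the other 6 mice. B cell markers went the other way: 6 of 8 fell in the controls, where 33.4% of all genes fell. Cd79a, part of the B cell receptor, fell by 2.29 there (log2, SE 0.41, adjusted p = 2.22e-05).

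Cxcl12, which retains progenitors and B cells through Cxcr4, varied little, at 54.7 to 64.7 CPM in the control mice at 30 °C and 56.9 to 67.9 CPM after cold. Its log2 fold change was 0.03 in the controls with a 95% interval of -0.12 to 0.18. Of its 2 receptors, Cxcr4 fell by 0.86 in the controls (SE 0.31, adjusted p = 0.0182), and the scavenger Ackr3 rose. Ackr3, which removes Cxcl12 from the tissue, had the highest level per length of all members when averaged over all 26 mice, with a mean of 8.71 ± 2.77 RPKM (SD, n = 7) in the control mice at 30 °C and 49.7 ± 8.40 (n = 5) after cold. In CPM it ranged from 16.2 to 42.4 in the control mice at 30 °C and stood at 159, 172, 164, 208 and 129.7 after cold. The log2 fold change was 2.51 (SE 0.21, adjusted p = 4.24e-11) in the controls and 2.84 (SE 0.20, adjusted p = 1.54e-12) in the mice labelled KO, with no overlap in either.

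Ackr3 is thus a receptor that rose without a kappaB match, and Cx3cr1, described next, a receptor that fell. Their 120 bases before the start are given as a contrast to the sequences above. Neither holds a match to the kappaB motif, to GAAANNGAA or to TGACGTCA on either strand. That of Ackr3 lies at chr1:90203860-90203979 (plus strand) and that of Cx3cr1 at chr9:120068297-120068416 (minus strand), on GRCm38.p6.
Ackr3: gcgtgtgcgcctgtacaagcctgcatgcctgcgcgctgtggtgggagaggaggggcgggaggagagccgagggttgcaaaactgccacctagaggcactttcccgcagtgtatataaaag
Cx3cr1: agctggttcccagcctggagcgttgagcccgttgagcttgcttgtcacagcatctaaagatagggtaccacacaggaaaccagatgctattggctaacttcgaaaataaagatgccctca

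Of the other atypical receptors, Ackr2, a scavenger of inflammatory CC ligands, rose by 1.59 in the controls (SE 0.29, adjusted p = 3.5e-05) from a median of 1.35 CPM to 5.40, 3.83, 3.30, 5.04 and 3.17 CPM. It rose by 2.01 in the mice labelled KO (SE 0.29, adjusted p = 8.27e-07), and mouse 27, the highest in the inflammatory ligands, was the lowest in Ackr2 with 0.90 CPM against 2.75 to 5.78 CPM in the others, so that it lay within the range of the mice at 30 °C. Ackr1, carried by venules and red blood cells, rose by 1.49 in the mice labelled KO (SE 0.29, adjusted p = 6.51e-05) and had a log2 fold change of 0.63 in the controls (adjusted p = 0.0815), which was 0.74 without the 3 mice that stood apart (adjusted p = 0.0244). Its exons share 25.7% of their length with Cadm3 on the same strand, so part of its reads may belong to that gene. Ackr4 had medians of 7.47 and 7.64 CPM in the control mice at 30 °C and after cold (adjusted p = 0.427).

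Of the platelet ligands, Pf4 rose in both kinds of mice and Ppbp in those labelled KO. Pf4, platelet factor 4, which resident macrophages also make, went from 5.05 to 6.74 CPM in the control mice at 30 °C to 11.0, 13.8, 13.2, 12.5 and 14.1 CPM after cold, a log2 change of 1.14 (SE 0.17, adjusted p = 1.48e-06). The value in the mice labelled KO was 1.64 (SE 0.16, adjusted p = 6.53e-10). Ppbp, the platelet precursor of a Cxcr2 ligand, had 0.665 to 1.16 CPM in 6 control mice at 30 °C and 5.78 CPM in control mouse 7, and 2.31, 3.55, 3.26, 2.39 and 3.57 CPM after cold. Its log2 fold change was 0.78 (adjusted p = 0.138) in the controls and 2.41 (SE 0.44, adjusted p = 2.4e-05) in the mice labelled KO. Without the 3 mice that stood apart, Ppbp also passed the threshold in the controls (log2 fold change 1.55, adjusted p = 6.71e-05).

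Cx3cr1, the fractalkine receptor of patrolling monocytes, resident macrophages and NK cells, gave the largest fall. It was at 2.24 to 4.71 CPM in the control mice at 30 °C and at 0.178, 0.139, 0.472, 0.520 and 0.0576 CPM after cold. The log2 fold change was -3.37 (SE 0.37, adjusted p = 9.23e-09) in the controls and -3.97 (SE 0.35, adjusted p = 1.3e-10) in the mice labelled KO, where mouse 28 had no count. No mouse after cold reached the level of any mouse at 30 °C. Its ligand Cx3cl1, made by endothelium and other cells, had medians of 4.57 and 5.63 CPM in the control mice (adjusted p = 0.252). Adgre1, which encodes the macrophage antigen F4/80, had medians of 15.4 CPM at 30 °C and 9.74 CPM after cold in the controls. It is 1 of the 14 macrophage markers, of which 7 rose and 4 fell there, where 31.6% of all genes rose and 33.4% fell. The largest changes of that list were rises, of Itgam by 1.82 and of Lyve1 by 1.55 (log2).

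Ccr10, a receptor of skin-homing T cells and of antibody-producing cells, fell with its ligand. It was at 3.49 to 7.34 CPM in the control mice at 30 °C and at 1.19, 0.557, 0.858, 1.20 and 1.73 CPM after cold, a log2 change of -2.26 (SE 0.24, adjusted p = 4.1e-09). Those labelled KO gave -2.09 (SE 0.21, adjusted p = 1.23e-09), again with no overlap. Ccl27a fell by 1.34 in the controls (SE 0.24, adjusted p = 1.9e-05) and by 1.26 in the mice labelled KO (SE 0.22, adjusted p = 1.08e-05), from medians of 3.03 and 2.94 CPM to 1.30 and 1.19 CPM. Ccl28, the mucosal ligand of the same receptor, had a log2 fold change of -0.90 (adjusted p = 0.0812) in the controls and -1.28 (SE 0.39, adjusted p = 0.00546) in the mice labelled KO. Without the 3 mice the value in the controls was -0.92 (adjusted p = 0.0463). The mouse genome holds further near-identical copies of Ccl27a, among them Ccl27b, so counts of this family are uncertain.

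The interferon-induced ligands Cxcl9 and Cxcl10, which attract T cells through Cxcr3, lie close together on chromosome 5 and did not follow the neutrophil-attracting ligands. Cxcl9 was at 11.7 to 28.1 CPM in the control mice at 30 °C and at 4.57, 5.71, 6.74, 8.00 and 6.86 CPM after cold, with no overlap and a log2 change of -1.53 (SE 0.34, adjusted p = 0.000349). Among those labelled KO it fell by 0.97 (SE 0.30, adjusted p = 0.00594), and mouse 27 kept 22.8 CPM while the other mice had at most 11.3 CPM. Cxcl10 had medians of 5.54 and 4.08 CPM in the controls (adjusted p = 0.413). In the mice labelled KO its log2 fold change was -0.65 (adjusted p = 0.149), and mouse 27 was the highest after cold with 10.2 CPM. Without mouse 27 it was past the threshold in that group at -1.10 (adjusted p = 0.0117), and without the 3 mice that stood apart at -1.61 (adjusted p = 0.000455). The 220 bases before their starts are given because both hold GAAANNGAA, a core of the element read by interferon-activated factors, and Cxcl10 also holds kappaB matches, all in capitals. That of Cxcl9 lies at chr5:92328080-92328299 (minus strand) and that of Cxcl10 at chr5:92348890-92349109 (minus strand), on GRCm38.p6.
Cxcl9: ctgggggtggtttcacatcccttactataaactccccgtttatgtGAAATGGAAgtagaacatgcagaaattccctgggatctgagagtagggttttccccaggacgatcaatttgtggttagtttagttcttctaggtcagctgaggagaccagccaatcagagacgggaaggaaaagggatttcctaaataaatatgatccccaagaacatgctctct
Cxcl10: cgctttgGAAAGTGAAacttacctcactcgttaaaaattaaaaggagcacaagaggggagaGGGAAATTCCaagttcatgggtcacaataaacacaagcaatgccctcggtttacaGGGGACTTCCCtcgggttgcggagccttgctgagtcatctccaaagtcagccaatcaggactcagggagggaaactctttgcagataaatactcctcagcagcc

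GAAANNGAA, searched on both strands, was in 8 of the 54 member windows and in 8.56% of all windows, and Cxcl14 and Ccl3, which rose, hold it too. Of 20 genes of the interferon response, 1 rose and 5 fell in the controls (5% and 25%, against 31.6% and 33.4% of all genes). In the mice labelled KO, 4 rose and 4 fell (20% each, against 33.7% and 34.9% of all genes). Both shares were thus below those of all genes in each comparison. Gbp5, an interferon-induced GTPase, fell by 2.43 (log2) in the controls (SE 0.50, adjusted p = 0.000138). Mx1, of the same list, rose by 1.27 in the mice labelled KO (SE 0.35, adjusted p = 0.00252).

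Receptors of T cells and of dendritic cells were low and mostly fell. Cxcr6, carried by resident T and NKT cells, fell by 0.91 in the controls (SE 0.26, adjusted p = 0.00307) and by 0.93 in the mice labelled KO (SE 0.23, adjusted p = 0.000713), and its ligand Cxcl16 fell by 0.83 (SE 0.24, adjusted p = 0.00374) and 0.69 (SE 0.22, adjusted p = 0.00648). Cxcl16 shares 18.3% of its exon length with Zmynd15 on the other strand, and Ccr9 shares 18.8% with a gene on the other strand. Ccr9, the gut-homing receptor, fell by 0.74 (SE 0.29, adjusted p = 0.0291) and 1.28 (SE 0.27, adjusted p = 0.000125). Cxcr3 had a log2 fold change of -0.91 in both kinds of mice, with an adjusted p of 0.072 in the controls and 0.0422 in the mice labelled KO, which was 0.055 without mouse 27 and 0.0194 without the 3 mice. Xcr1, the receptor of cross-presenting dendritic cells, fell by 1.15 in the controls (SE 0.43, adjusted p = 0.021) and had -0.74 in the mice labelled KO (adjusted p = 0.0871), which was past the threshold without mouse 27 (-1.03, adjusted p = 0.0235).

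Markers of T and NK cells and of B cells were also lower in sum in the controls after cold. The T and NK cell markers summed to 5.83 to 23.0 CPM in the control mice at 30 °C and 3.32 to 6.45 CPM after cold, and 6 of 14 fell and none rose. The B cell markers summed to 11.6 to 28.4 CPM and 3.52 to 6.70 CPM in the same groups, and 6 of 8 fell. The dendritic cell markers summed to 55.1 to 72.3 CPM and 53.1 to 66.8 CPM in these groups, which overlapped. Of 7 dendritic cell markers 3 fell, where 33.4% of all genes fell in the controls. In the mice labelled KO, 4 of 14 T and NK cell, 2 of 8 B cell and 5 of 7 dendritic cell markers fell and none rose. The first 2 of these shares were below the 34.9% of all genes that fell in that comparison. Without the 3 mice that stood apart 9 of 14 T and NK cell markers and 7 of 7 B cell markers fell in both kinds of mice. Mouse 23, labelled KO, was an exception after cold, with 39.7 CPM of B cell markers and 31.6 CPM of T and NK cell markers against at most 9.92 and 9.02 CPM in the other mice of its group. It also had 4.60 CPM of Ccr7, the receptor that leads lymphocytes and dendritic cells into lymph nodes, against at most 1.74 CPM in the others. The rise of Ccr7 in the mice labelled KO (log2 fold change 1.17, SE 0.51, adjusted p = 0.0458) was -0.15 without the 3 mice that stood apart (adjusted p = 0.763), and it also missed the threshold without mouse 27 (1.08, adjusted p = 0.0792). The part of lymphocyte number in the levels of these receptors was not tested.

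Of the remaining ligands, Ccl17, which attracts Ccr4-bearing T cells, rose by 2.04 in the controls (SE 0.48, adjusted p = 0.000557) and by 2.76 in the mice labelled KO (SE 0.41, adjusted p = 1.38e-06), to medians of 0.864 and 1.42 CPM. In the controls 1 mouse after cold (mouse 16, 0.474 CPM) overlapped with those at 30 °C. Ccl22, which shares its receptor, had medians of 0.665 and 0.728 CPM in the controls (adjusted p = 0.804). Ccl25, the thymic and gut ligand of Ccr9, rose by 0.47 (SE 0.10, adjusted p = 0.000189) from a median of 9.19 to 12.8 CPM in the controls, and by 0.32 (SE 0.09, adjusted p = 0.00337) in the mice labelled KO.

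Set side by side, 20 listed ligand and receptor pairs had both partners tested. In the controls both partners rose in 5 pairs (Cxcl1, Cxcl2 and Cxcl5 with Cxcr2, and Ccl6 and Ccl9 with Ccr1) and both fell in 2 (Ccl27a with Ccr10 and Cxcl16 with Cxcr6). They moved in opposite directions in 3 (Ccl2 and Ccl7 with Ccr2, and Ccl25 with Ccr9). The numbers in the mice labelled KO were 5, 4 and 3. Pairs that share a receptor or a ligand are not independent of each other. Downstream of the receptors, 10 of 44 genes of signal transduction (G proteins, kinases, arrestins and regulators) rose and 22 fell in the controls, against 13 and 16 in the mice labelled KO. Of all genes, 31.6% rose and 33.4% fell in the controls and 33.7% and 34.9% in the mice labelled KO, so that the shares in the latter were close to those of genes in general. Rgs2, a regulator that shortens G protein signals, fell by 1.87 (log2; SE 0.31, adjusted p = 8.53e-06), and Rac2, a leukocyte GTPase needed for movement, fell by 1.18 (SE 0.30, adjusted p = 0.000994). Among 14 tested genes of leukocyte adhesion 3 rose and 4 fell, and Icam1, the endothelial ligand of leukocyte integrins, rose by 2.07 (SE 0.21, adjusted p = 2.28e-09). Of 15 tested attractants outside the families, 3 rose and 6 fell.

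Many members lie in clusters, and neighbours did not always move together. On chromosome 5 the run from Cxcl5 at 90759360 to Cxcl2, which ends at 90905938 (GRCm38), holds Cxcl5, Ppbp, Pf4, Cxcl3, Cxcl15, Cxcl1 and Cxcl2. All 5 of its tested genes rose in the mice labelled KO and 4 of them in the controls, whereas Cxcl9 and Cxcl10, which start at 92321347 and 92346638, did not rise. On chromosome 11, Ccl2 and Ccl7 rose and the next genes Ccl11, Ccl12 and Ccl8 did not pass the test, and further along Ccl9, Ccl6 and Ccl3 rose beside Ccl5. On chromosome 9, Ccr1 rose between Xcr1 and Ccr2, both of which fell in the controls.

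**Figure D4:**
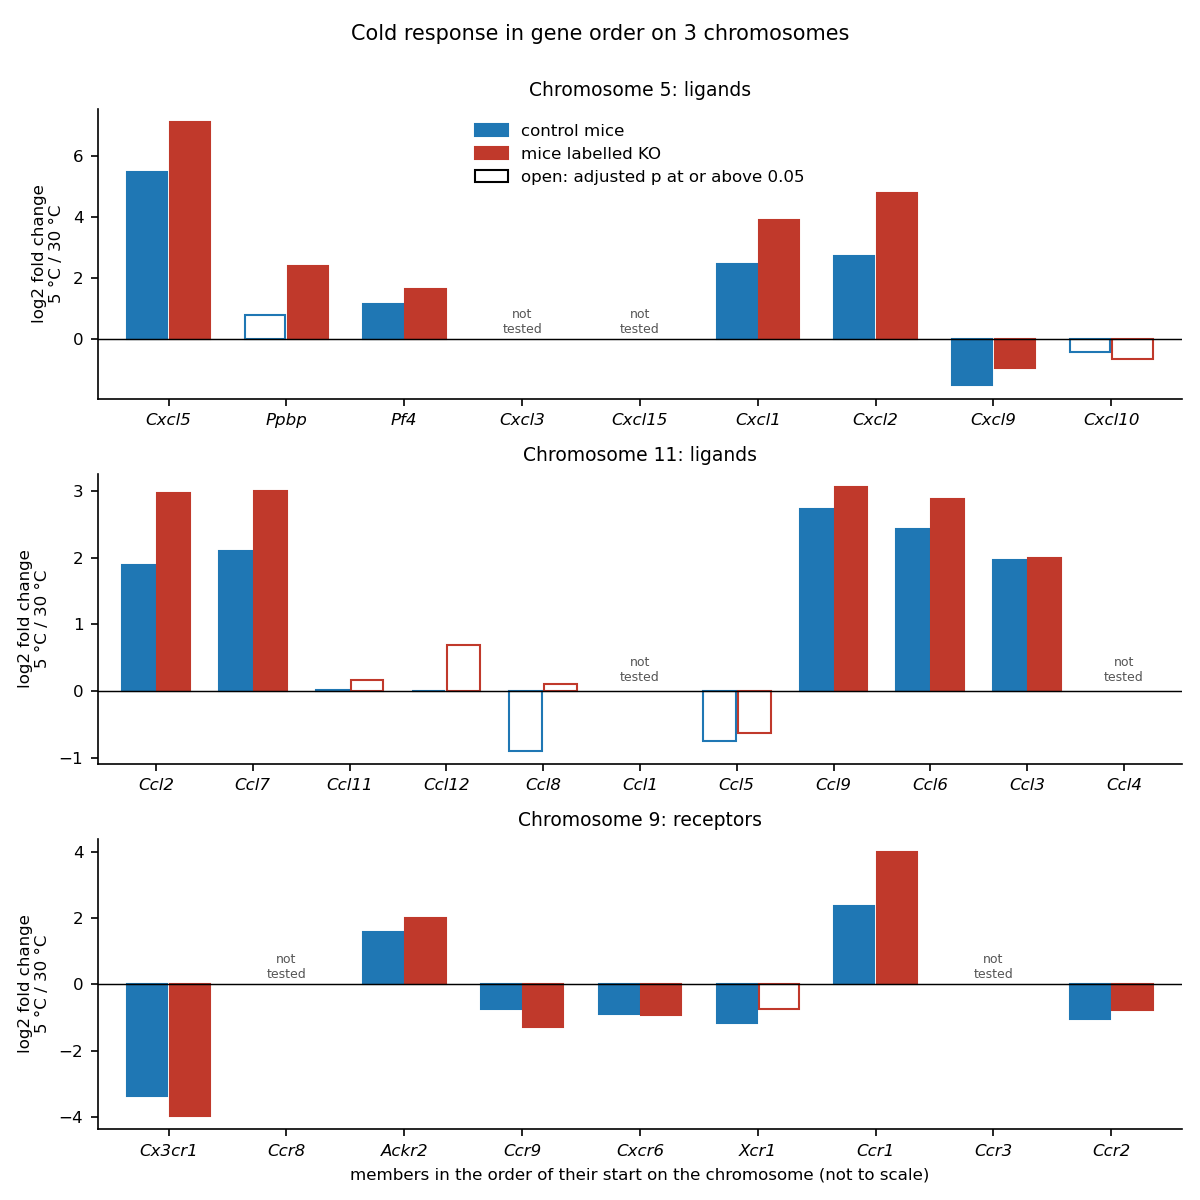
Members on chromosomes 5, 11 and 9 stand in the order of their start (not to scale), with the log2 fold change of cold on the vertical axis for control mice (blue) and mice labelled KO (red). Open bars have an adjusted p at or above 0.05. Cxcl9 and Cxcl10 point down beside the rising Cxcl5 to Cxcl2 run. On chromosome 9, Ackr2 and Ccr1 point up, and the other tested receptors shown point down.

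Per length of transcript, the highest ligands over all mice were Ccl6 (5.63 ± 1.33 RPKM, SD, n = 7, in the control mice at 30 °C and 30.6 ± 5.33, n = 5, after cold), Cxcl14 (6.52 ± 2.24 and 25.7 ± 5.21) and Ccl11 (15.2 ± 2.74 and 15.4 ± 2.24). In the controls at 30 °C Ccl11 was the highest ligand, followed by Pf4 (8.1 RPKM) and Cxcl12 (7.2 RPKM). After cold its mean was below those of Ccl6, Cxcl14, Pf4 (17.9 ± 1.68) and Ccl9 (16.6 ± 1.76). Pf4, Ccl9 and Ccl11 did not differ beyond their spread after cold. Below Ackr3 among the receptors in the controls at 30 °C came Ccr10 with 3.09 RPKM and Ccr2 with 2.37 RPKM. After cold these had 0.64 and 1.15 RPKM, and the means of Ackr4 (1.53 RPKM) and Ackr2 (1.33 RPKM) lay above both.

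At 30 °C, no member differed between the mice labelled KO and the controls past the threshold, where 0.081% of all genes did. By DESeq2 there were also 0, and 1 member had an unadjusted p under 0.05 in edgeR (2 in DESeq2), where 1322 of all 17286 genes did in edgeR. The smallest p was that of Ackr2 (log2 fold change -0.67, 95% interval -1.26 to -0.07, adjusted p = 0.607), with 0.499 to 2.16 CPM in the controls and 0.659 to 1.14 CPM in the mice labelled KO. Ackr3 (-0.38, interval -0.76 to -0.01, adjusted p = 0.653) and Ccl28 (0.63, interval -0.10 to 1.36, adjusted p = 0.736) followed. For the most abundant members the intervals were narrow, and for Cxcl12 the difference was 0.04 with an interval of -0.10 to 0.18.

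After cold, 0 of the 43 members differed between the labels in edgeR and in DESeq2, where 0.139% of all genes did in edgeR, and 8 members had an unadjusted p under 0.05 in either, where 2323 of all 17286 genes did in edgeR. All 8 were higher in the mice labelled KO in edgeR. Cxcl5 had the smallest p (log2 fold change 3.18, SE 1.05, adjusted p = 0.191), then Ccr1 (1.33, SE 0.47, adjusted p = 0.222) and Cxcl2 (1.66, SE 0.66, adjusted p = 0.268). Without mouse 27 these 3 values were 0.49, 0.53 and 0.21. Mouse 27 was the highest of its group in Cxcl1, Cxcl2, Cxcl5, Ccl2, Ccl7, Ccr1, Cxcr2, Ccl6, Ccl9 and Cxcl9 among others, and its summed level of neutrophil markers was the highest of all 26 mice. Members with steadier levels gave tighter bounds, and Ackr3 differed by -0.05 with an interval of -0.45 to 0.34, Ccl6 by 0.29 (-0.02 to 0.59) and Ccl9 by 0.38 (-0.01 to 0.76).

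**Figure D5:**
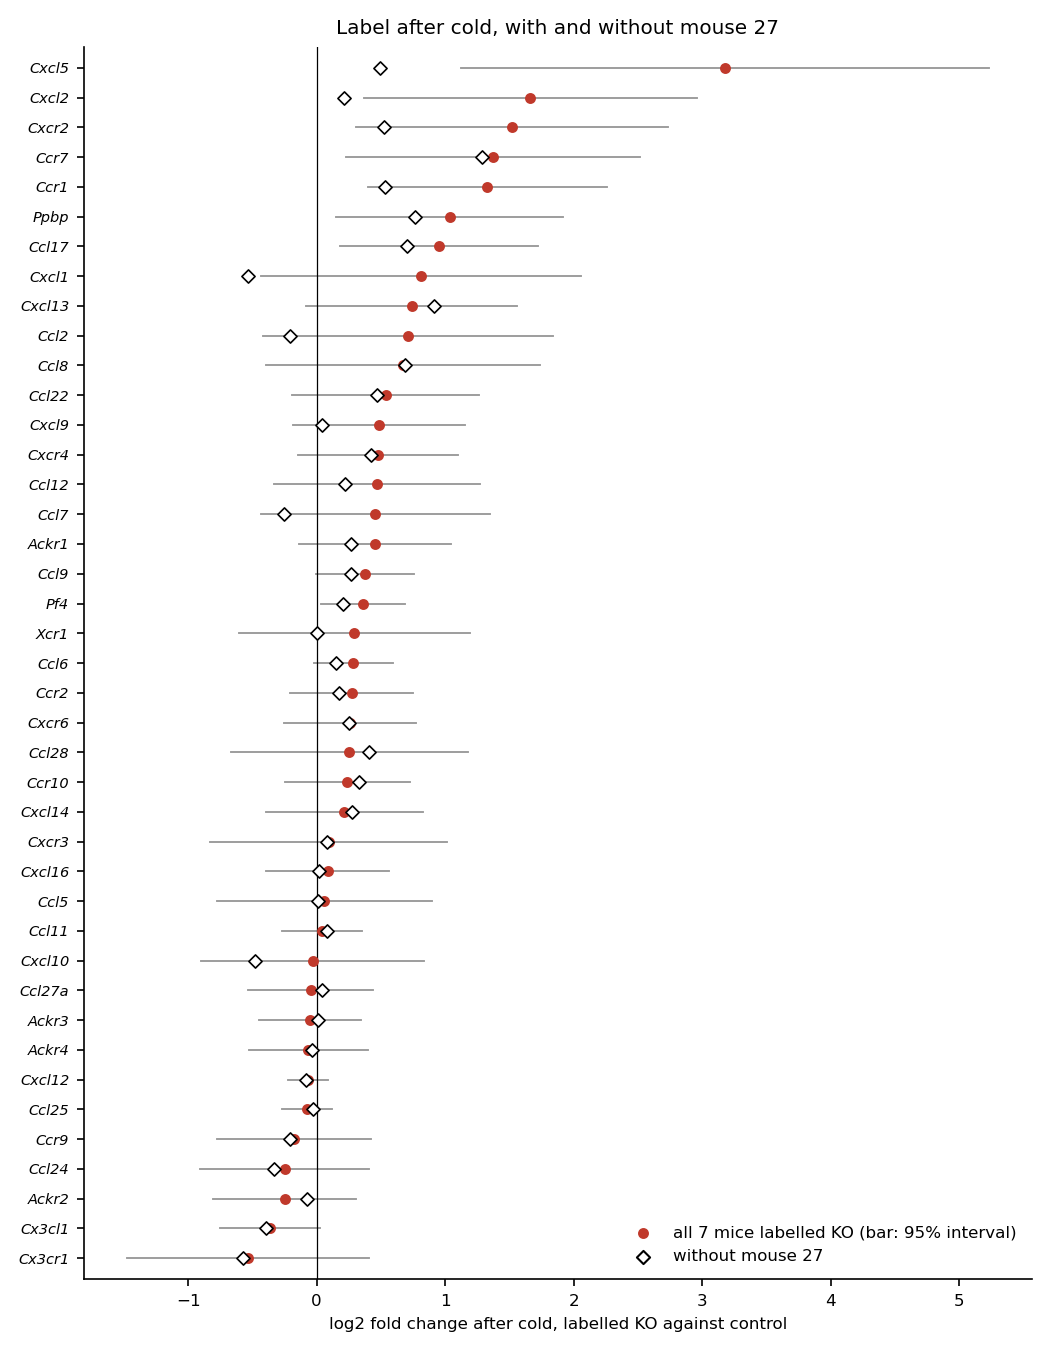
Rows are members tested with and without mouse 27, and the horizontal axis is the log2 fold change of mice labelled KO against control mice after cold, with red points and grey 95% intervals for all mice and open diamonds without mouse 27. The diamond of Cxcl5 lies at 0.49 and the point at 3.18, while those of Ackr3 and Ccl11 lie close together near 0.

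The cold response itself did not differ between the labels past the threshold for any member, where 1.16% of all genes did, and DESeq2 also gave 0. In edgeR 5 members and 2804 of all 17286 genes had an unadjusted p under 0.05, and 9 members in DESeq2. The smallest p was that of Ppbp, whose rise was larger in the mice labelled KO by 1.62 (log2; SE 0.64, adjusted p = 0.202), followed by Cxcl13 (1.52, SE 0.63, adjusted p = 0.227) and Ccr7 (1.80, SE 0.79, adjusted p = 0.256). Without control mouse 7 at 30 °C the values of Ppbp and Cxcl13 were 0.84 and 0.98, and without mouse 23 that of Ccr7 was 1.00. The tests of the label after cold and of the difference in cold response share mice and are not independent.

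The other 18 members had too few counts for the test. Ccl20, Ccl21a, Ccl21b, Ccl27b and Cxcl15 had no count in any of the 26 mice, which allows a level of up to 0.129 to 0.232 CPM per library (3 counts). Ccl21a and Ccl21b have near-identical copies as well, and reads shared between copies may not have been counted. Xcl1, the ligand of Xcr1 made by T and NK cells, had 28 counts over the control mice at 30 °C and 2 after cold, a rate ratio of 0.0929 with an exact 95% counting interval of 0.0107 to 0.368, and 39 and 3 counts in the mice labelled KO (ratio 0.0916, interval 0.0181 to 0.288). Xcl1 shares 18.7% of its exon length with an antisense gene. Cxcr1, the second neutrophil receptor, had no count over the control mice at 30 °C and 10 after cold, so that the exact 95% counting interval of the rate ratio starts at 2.92 and has no upper end. It had 3 and 14 counts in the mice labelled KO (ratio 5.56, interval 1.55 to 30.2). Ccl19, a ligand of Ccr7, had 6 and 11 counts in the controls, a ratio of 2.38 with an interval of 0.808 to 7.85. Ccl4, a neighbour of Ccl3 on chromosome 11, had 32 and 28 counts in the controls (ratio 1.14, interval 0.66 to 1.95). In the mice labelled KO, Ccl4 had 39 and 60 counts (ratio 1.83, interval 1.20 to 2.82). Mouse 27 alone held 38 of these 60 counts, so that this ratio rests largely on 1 mouse. These intervals cover counting error only, not the spread between mice. Ccl1, Ccl26, Ccr3, Ccr4, Ccr6, Ccr8, Cxcl17 and Cxcr5 had 0 to 55 counts in any group.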

How the data were processed

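RNA-seq was performed on brown adipose tissue of 26 mice with a stranded total RNA kit and 100-bp single-end reads. Alignment by the authors was to mm10 with STAR 2.5.2b, and the deposited values are raw counts per gene from featureCounts 1.5.2 on GENCODE release M13. Whether strand was used in counting is not given in the sources used here, so overlapping genes are named as uncertain. CPM (counts scaled to a common library total) and RPKM (CPM per kilobase of exons) were computed from the deposited counts. Library totals were 12705969 to 25732258.

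Tests used edgeR 4.0.16 (R 4.3.3) with TMM factors, a filter on low counts by group, 1 quasi-likelihood fit over all 4 groups and Benjamini-Hochberg adjustment over 17286 genes, with a threshold of 0.05. The comparisons were cold in each kind of mice, label at 30 °C, label after cold, and whether the cold response differed by label. The SE of a log2 fold change was its size over the square root of F, and 95% intervals are 1.96 SE. The spread is that between mice. The fit was tested on simulated data, where 138 of 191 genes changed by a log2 fold change of 1 or -1 between control groups were recovered among 16855 genes, with 8 false calls. Libraries of a group were compared with each other, and in the 73 pairs the lowest chi-square per gene was 4.83, so none was a repeat of another.

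The members, gene lists and tests were chosen with earlier results of these data known. Named in full were, for each comparison, the 12 members with the largest absolute log2 fold change past the threshold and a mean of at least 1 CPM in a group compared, or the 3 members with the smallest p where none passed, and the 3 ligands and 3 receptors with the highest RPKM. Others were named after their values were seen, to account for the members, except 1 tested member that is counted but not reported here. Of a marker or pathway list, up to 2 genes past the threshold with the largest change were named. Values of Ly6g and Adgre1 were given besides. Alternatives were DESeq2 1.42.0, other normalizations, filters and edgeR settings, fits of only the groups compared and fits without each mouse. Fits without the 3 mice that stood apart, and counting intervals for low members, were added after seeing the data. Promoter windows came from RefSeq on GRCm38.p6, and gene positions from GENCODE release M21 on GRCm38. Motifs were searched on both strands, overlaps included, and windows were aligned with Biopython 1.88.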

Additional observations from a re-analysis of the deposited data

Results flagged for a closer look

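The levels given here lay far from the rest of their group by Dixon's test, which marks about 1 in 20 groups by chance. Over the 43 tested members and 4 groups, 27 of 172 group tests gave such a mouse. Mouse 27, labelled KO and after cold, accounted for 8 of them, control mouse 7 at 30 °C for 3 high and 3 low values, and control mouse 3 at 30 °C for 4.

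Mouse 27 had 51.7 CPM of Cxcl1, 21.8 CPM of Cxcl2 and 37.4 CPM of Cxcl5, where the other 6 mice of its group had at most 9.71, 4.12 and 2.94 CPM. It had 9.17 CPM of Cxcr2 and 22.2 CPM of Ccr1, against at most 2.52 and 6.71 CPM in the others. Its levels of the monocyte ligands were 34.2 CPM for Ccl2 and 23.4 CPM for Ccl7, against at most 12.4 and 7.20 CPM. Its neutrophil marker genes summed to 67.4 CPM, the highest of all mice, and their part in these levels was not tested.

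Control mouse 7 had 5.78 CPM of Ppbp, 0.0459 CPM of Cxcl5 (a single count, where the others had none), 10.1 CPM of Ccl11 (others 16.1 to 19.5 CPM) and 3.53 CPM of Cxcl14 (others 11.2 to 16.5 CPM). Control mouse 3 had 4.71 CPM of Cx3cr1, 25.0 CPM of Ccr2 and 14.0 CPM of Ccl9, against at most 3.29, 17.0 and 8.62 CPM in the other control mice at 30 °C. Among the mice labelled KO at 30 °C, mouse 10 had 2.44 CPM of Ppbp and mouse 13 had 2.22 CPM of Cxcl13, against at most 1.31 and 1.07 CPM. Control mouse 17 had 9.06 CPM of Ccl7 after cold, and mouse 23, labelled KO, had 4.60 CPM of Ccr7.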

How the results depend on the processing

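The 27 members past the threshold for cold in the controls and the 31 in the mice labelled KO became 11 and 12 when at least 10 counts were required in every mouse, since only 18 members were then tested. Leaving out each mouse in turn gave 25 to 28 and 29 to 32, and 0 to 0 for the label at 30 °C, the label after cold and the difference of the cold responses. Only the groups compared gave 23 and 26 of 38 tested members, DESeq2 27 and 32, and no filter 31 and 32 of 56. With library size alone the median log2 fold change of all genes for cold moved to -0.14 in the controls and -0.34 in the mice labelled KO, and 52.9% of the members past the threshold in the latter were higher, against 64.5% with TMM and 54.5% with upper-quartile factors. The 33 log2 fold changes named in full by rule kept their direction and side of the threshold under every alternative that gave a value. So did all 858 of their values from leaving out a mouse. For label after cold, those of Cxcl5, Cxcl2 and Ccr1 shrank without mouse 27. The rule took the largest changes past the threshold or, where none passed, the members with the smallest p. Outside these 33, calls for cold did change, such as those of Ccr7, Ccl25, Xcr1 and Cxcl10. No paired analysis was possible because the groups share no replicate numbers. Levels under about 0.2 CPM rest on a few counts in a mouse, so fold changes from such levels are imprecise.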
